A study of Mus musculus with 3 samples.

Results

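The stem and progenitor transcription factors described here are 10 genes, Spi1, Lyl1, Lmo2, Hhex, Mef2c, Bcl11a, Erg, Hoxa9, Meis1 and Gfi1b, out of 27734 genes that all 3 count matrices list. They were taken by gene symbol, and each had at least 1 unique molecular identifier (UMI, 1 per captured RNA molecule) in the kept cells of every run. The data are single-cell RNA counts of thymocytes from C57BL/6 mice, labelled as 6 weeks old, with 4 thymi pooled for each of 3 runs. Run 1 (labelled DN and gammadelta) held all double negative (DN) cells, which lack CD4 and CD8, together with cells bearing the γδ T cell receptor. Run 2 (labelled DN1 and DN2) held CD44+ cells sorted also against the γδ receptor, and run 3 (labelled DN1, DN2, DN3 and gammadelta) held DN1 with DN2 cells, DN3 cells and TCRγδ+ cells that were sorted apart and then mixed. In all 3 runs, cells carrying B220, CD11b, CD11c, NK1.1 or TCRβ had been excluded by the sort, and the labels name no altered gene and no treatment. Each sort was made once, so the runs are separate pools that differ in which cells were sorted. Their matrices differ too, with 28692 genes listed in runs 1 and 2 and 32285 in run 3.

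Progenitors that seed the thymus arrive with a set of transcription factors that also work in blood stem cells and in myeloid or B cell precursors. Under Notch signaling these legacy factors are turned off while the T cell program is built, and the point at which the cell can no longer become anything else, T lineage commitment, is marked by the rise of Bcl11b. Spi1 encodes PU.1 and Erg an ETS relative of it, Lyl1 is a basic helix-loop-helix factor that works in complexes bridged by the LIM-only protein Lmo2, and Hhex, Hoxa9 and Meis1 are homeobox factors. Mef2c is a MADS-box factor, and Bcl11a and Gfi1b are zinc finger repressors known best from B cell and red cell development, respectively.

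Stages were read from UMIs of 4 genes. Kit, the stem cell factor receptor, marks the earliest progenitors, and Cpa3, a mast cell carboxypeptidase, is turned on around the DN2 stage. Citing earlier work, the paper also places Cpa3 in the γδ lineage program. Il2ra encodes CD25 of DN2 and DN3 cells, and Ptcra encodes the pre-T cell receptor α chain of DN3 cells. The paper also counts Ptcra among late commitment genes that set later DN2 cells apart from earlier ones. Run 2 was sorted for DN1 and DN2 cells, so its gates with Ptcra need not hold DN3 cells. A cell with at least 1 UMI of a gene was positive for it. This gave a chain of 6 exclusive gates in the order Kit+ (Kit only), Cpa3+ (no Il2ra or Ptcra UMI), Cpa3+Il2ra+ (no Ptcra UMI), Cpa3+Ptcra+, Il2ra+Ptcra+ (no Cpa3 UMI) and Ptcra+ (no Cpa3 or Il2ra UMI). Kit was ignored in the gates after the first. Cells positive for none of the 4 genes, or only for Il2ra or for Kit and Il2ra, lay outside the chain. A cell can lack a UMI of a gene that it expresses, so the gates are enriched for stages and are not pure.

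After limits of 500 to 5000 genes and at most 7% mitochondrial counts, 21879 of 23283 cells were kept, which were 5516, 8852 and 7511 in runs 1, 2 and 3. Their median depths were 5990, 4844 and 8507 UMIs. Runs 1 and 2 shared 72 cell barcodes, runs 1 and 3 shared 3, of which 1 was among kept cells, and runs 2 and 3 shared 0. The Kit+ gate held 26, 85 and 153 cells, whereas the Cpa3+Il2ra+ gate held 438, 2171 and 1432. The Kit+ gate of run 1 stood apart. It had no UMI of Flt3, Cd34 or Cd44, genes of early progenitors, while runs 2 and 3 had 20.8 and 22.1 CPM (UMIs of a gene per 1000000 UMIs of the summed cells) of Flt3 and 113 and 71.1 CPM of Cd34 there. Its Bcl11b level was 442 CPM against 184 and 232 CPM. This gate was kept in the fit, and its results are also given without it. The Ptcra+ gate, last of the chain, also differed by run. The sort of run 1 took all DN cells, whereas those of runs 2 and 3 named no DN stage past DN3. From the Il2ra+Ptcra+ to the Ptcra+ gate, Cd44 went from 1.94 to 0.73 CPM in run 1. It went from 6.43 to 12.5 CPM in run 2 and from 5.48 to 15.9 CPM in run 3. The Ptcra+ gate is thus not taken as the same stage in each run.

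Markers listed for other cell types were frequent, though a cell that carries them need not be of that type. The paper describes Sox13, 1 of the γδ markers, as high in DN1d cells, a subset of DN1. Counting cells with UMIs of at least 2 genes of a list, γδ markers were found in 11.5% to 34.3% of the cells of the chain gates in run 1, 9.09% to 30.3% in run 2 and 13.9% to 68.5% in run 3, where the Cpa3+ gate was the highest. Run 2 had been sorted against the γδ receptor. NK receptor markers were found in 13.7% to 69.3% of each chain gate, although NK1.1+ cells had been sorted out. B cell markers were found in 2.62% to 7.18% of each chain gate of run 3 and in at most 0.395% in the other runs. Genes of granulocytes or mast cells summed to 818 CPM in the Kit+ gate of run 2, where 8 of 85 cells carried at least 2 of them.

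For each gate and run, UMIs were summed over cells and scaled to CPM, with an exact Poisson 95% interval that covers counting error only. A sum does not tell fewer expressing cells from less RNA per cell, and the part of RNA free in the cell suspension was not tested. The gates were tested against each other with edgeR (quasi-likelihood) over 18 sums, 6 gates in each of 3 runs, with the run as a block, and adjusted p-values are Benjamini-Hochberg values over all genes tested, of which there were 11053. Of the 10 factors, 9 passed the filter on low counts and Meis1 did not.

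From the Kit+ to the Il2ra+Ptcra+ gate, which is the gate before the last of the chain, 7 of the 9 factors tested fell and none rose. The sort of run 2 named no DN3 cells, so this span need not end at the same stage in each run. Lmo2, Lyl1, Hhex and Spi1 fell most, Mef2c, Hoxa9 and Bcl11a fell less, and Erg and Gfi1b were not called. Of all genes tested, 10.2% were called lower and 6.77% higher. The median log2 change of the 9 factors was -3.26, beside 0.06 for all genes.

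Spi1 was at 12.3, 86.8 and 70.5 CPM in the Kit+ gates of runs 1, 2 and 3 and at 1.33, 6.59 and 4.48 CPM in the Il2ra+Ptcra+ gates. The later gate was lower in every run, though the interval of run 1's Kit+ gate (1.49 to 44.4 CPM, 2 UMIs) overlaps it. The fitted log2 change was -3.84 ± 0.33 (SE), a 14.4-fold lower level, with an edgeR adjusted p of 4.7e-07, and it was -3.89 without the Kit+ gate of run 1. With the cells carrying markers of non-T lineages left out, Spi1 was at 43.9 and 51.5 CPM in the Kit+ gates of runs 2 and 3. Its log2 change was then -3.48 and still called. These markers include Mpo, Csf1r and Itgam, which are among the genes that PU.1 is known to activate. Leaving out such cells, here and below, is thus not independent of Spi1.

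Lyl1 was at 57.3 and 28.7 CPM in the Kit+ gates of runs 2 and 3 and at 1.23 and 2.06 CPM in the Il2ra+Ptcra+ gates. In run 1 no UMI was found among the 26 Kit+ cells, where 3 UMIs would be 18.4 CPM and the exact 95% interval reaches 22.7 CPM, and the later gate had 0.85 CPM. The log2 change was -4.31 ± 0.47, with an edgeR adjusted p of 6.2e-06. Lmo2 went from 34.7 to 0.61 CPM in run 2 and from 19.7 to 0.69 CPM in run 3, while run 1 had 11 UMIs of it in all its kept cells. Its log2 change of -5.11 ± 0.41 was the largest of the 9, with an edgeR adjusted p of 2.4e-07.

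Hhex, from 83.3 to 7.81 CPM in run 2 and from 66.9 to 3.36 CPM in run 3, changed by -3.93 ± 0.42 on the log2 scale (edgeR adjusted p of 5.1e-06). Mef2c differed in level between runs, with 76.4 CPM in the Kit+ gate of run 2 and 217 CPM in that of run 3, and reached 7.20 and 19.8 CPM at the Il2ra+Ptcra+ gate. It changed by -3.21 ± 0.32 (edgeR adjusted p of 2.4e-06). Bcl11a kept more of its level, with 46.9 and 81.8 CPM at the start and 15.9 and 20.3 CPM later. Its log2 change was -1.71 ± 0.27, with an edgeR adjusted p of 0.0002. Run 1 did not show these differences for Mef2c and Bcl11a. Its Kit+ gate had 0 UMIs of Mef2c and 1 UMI of Bcl11a (6.14 CPM), and its Il2ra+Ptcra+ gate had 3.99 and 8.71 CPM. Hhex was at 6.14 CPM, also on 1 UMI, and 0.60 CPM in these gates of run 1.

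Hoxa9 was a low gene, with 7 and 28 UMIs in the Kit+ gates of runs 2 and 3 (12.2 and 16.7 CPM) and 1.53 and 1.56 CPM in the Il2ra+Ptcra+ gates. It changed by -3.26 ± 0.40 on the log2 scale (edgeR adjusted p of 1.5e-05). Its partner Meis1 was at 5.21 and 5.38 CPM in those Kit+ gates, on 3 and 9 UMIs, and had 44 UMIs in all chain gates together. Gfi1b, with 173 UMIs in the chain, changed by -1.41 ± 0.77 and was not called (edgeR adjusted p of 0.24).

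Erg, an ETS factor of blood stem cells, was not called over this span. Its levels in the Kit+ gates were 6.14, 13.9 and 23.9 CPM in runs 1, 2 and 3, and those in the Il2ra+Ptcra+ gates were 7.74, 18.2 and 21.9 CPM. The intervals of these gates overlapped in every run. The log2 change was -0.03 ± 0.47, with an edgeR adjusted p of 0.99.

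**Figure D1:**
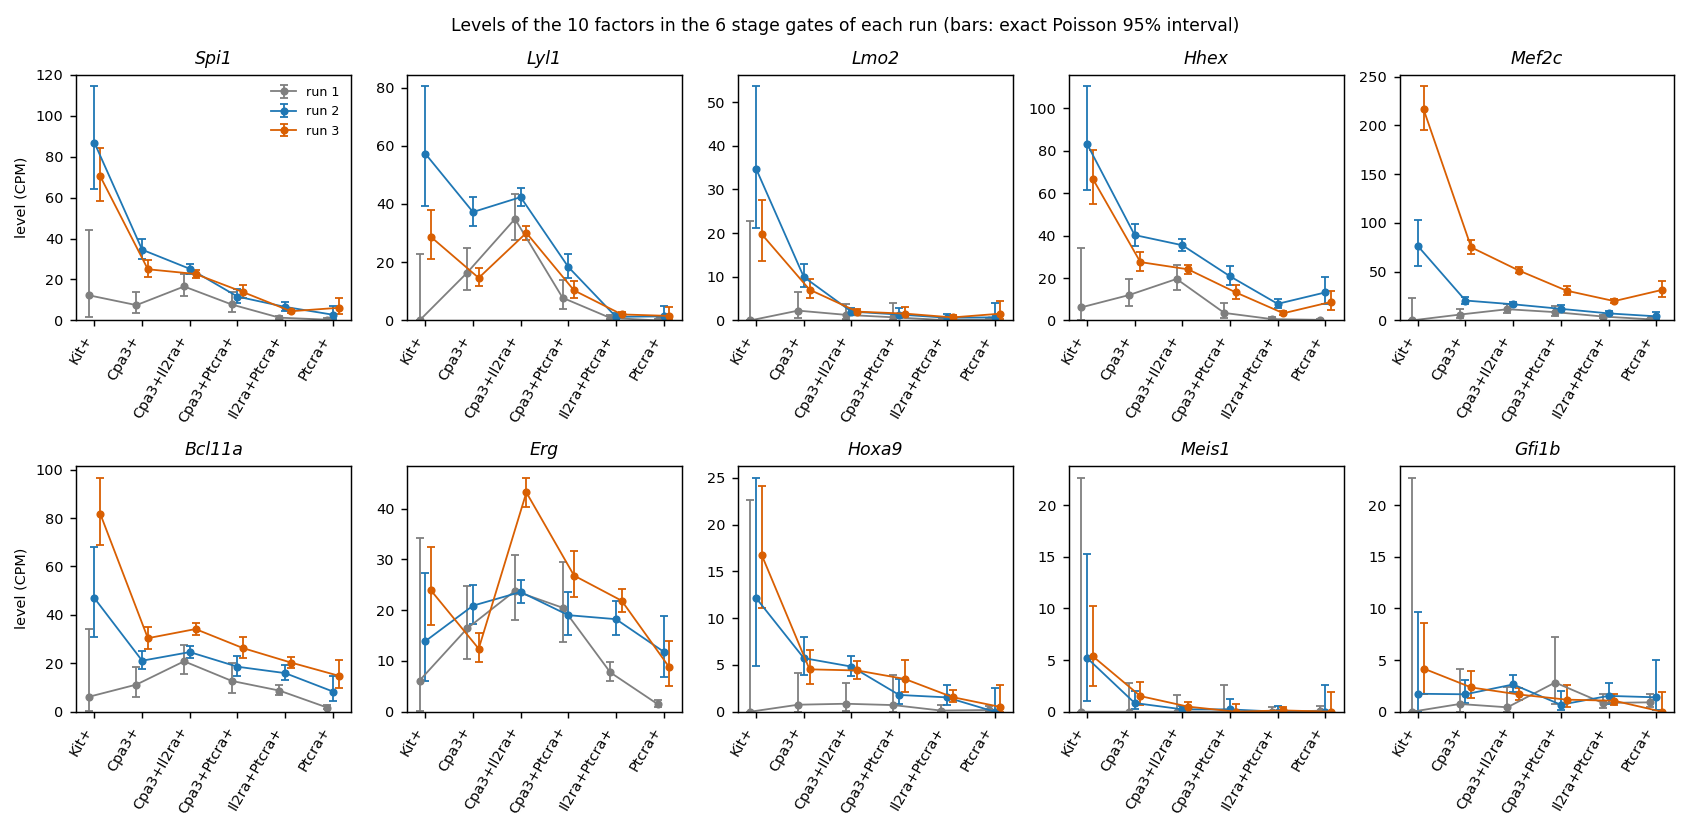
Level of each of the 10 factors (y axis, CPM) in the 6 gates of the chain (x axis, earliest on the left), with 1 line per run and exact Poisson 95% intervals as bars. In runs 2 and 3 Spi1, Lmo2, Hhex and Mef2c were highest in the Kit+ gate, and Erg was highest in the Cpa3+Il2ra+ gate of all 3 runs.

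Without a run block, 3 of these 7 calls were left (Spi1, Lyl1 and Lmo2), and 5 were left without run 3, where 8 factors were tested. With cells carrying γδ markers left out, 8 of 10 factors tested were called, Meis1 among them. With all cells carrying markers of any other type left out, 4 of 8 tested were called (Lyl1, Hhex, Mef2c and Hoxa9).

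The order in which the factors left the chain was read, without a test, as the first gate at or under 25% of the highest level, for factors with at least 20 UMIs in their highest gate. Of 7 factors that could be read in both runs 2 and 3, 5 reached it in the same gate. Lmo2 and Mef2c reached it in the Cpa3+Il2ra+ gate in both runs, Lmo2 at 5.79% and 10.2% of its highest level and Mef2c at 21.6% and 23.6%. Spi1 and Hhex reached it in the Cpa3+Ptcra+ gate in both runs, with Hhex at 24.98% and 19.8%. Lyl1 reached it in the Il2ra+Ptcra+ gate, and Bcl11a in the Il2ra+Ptcra+ gate of run 3, at 24.8%, and in the Ptcra+ gate of run 2.

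Hhex in run 2 and Bcl11a in run 3 were thus just inside the limit, and Bcl11a in the Il2ra+Ptcra+ gate of run 2, at 34.0%, was outside it. Mef2c was also near it in the Cpa3+Il2ra+ gate, at 21.6% and 23.6%, where Spi1 was at 29.0% and 32.2%. Hoxa9 had enough UMIs only in run 3, where it reached the limit in the Cpa3+Ptcra+ gate. Erg reached it in the Ptcra+ gate of runs 1 and 3, of which only run 1 was sorted with DN cells past DN3. In run 2, sorted without DN3 cells, Erg did not reach it at all and was still at 50.1%. Gfi1b could be read only in run 2 and did not reach it, with 25.4% as its lowest level. With a limit of 50% in place of 25%, Spi1, Lmo2, Hhex, Mef2c and Bcl11a all reached it in the Cpa3+ gate of runs 2 and 3. That limit gave no order among them, and Lyl1 reached it in the Cpa3+Ptcra+ gate of these runs. The Kit+ gate requires a Kit UMI and the later gates do not. Among cells with a Kit UMI, Mef2c was at 22.1 and 64.4 CPM in the Cpa3+Il2ra+ gates of runs 2 and 3. In the Cpa3+Ptcra+ gates Spi1 was at 23.1 CPM in both runs and Hhex at 39.8 and 20.6 CPM. These levels were above 25% of those in the Kit+ gates. Counting intervals were wide, 13.7 to 36.6 CPM for Spi1 in run 2. Lmo2, at 4.25 and 2.43 CPM in the Cpa3+Il2ra+ gates, was under 25%. The order above thus also depends on Kit content.

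In run 1 the 6 factors that could be read, namely Spi1, Lyl1, Hhex, Mef2c, Bcl11a and Erg, were all highest in the Cpa3+Il2ra+ gate, not in the Kit+ gate of 26 cells. From there Lyl1 and Hhex were at 22.3% and 18.1% in the Cpa3+Ptcra+ gate, Spi1 was at 8.03% in the Il2ra+Ptcra+ gate, and Mef2c, Bcl11a and Erg passed the limit only in the Ptcra+ gate, at 9.49%, 8.28% and 6.10%. Gates defined by at least 2 UMIs gave the same gate at 25% for 7 of 16 pairs of factor and run that could be read both ways. Cells thinned to 2000 UMIs gave it for 2 of 5, leaving out cells with markers of any other type for 7 of 12 and leaving out those with non-T markers for 13 of 19. Leaving out likely doublets gave it for 18 of 22, leaving out γδ markers for 19, no upper limit on genes for 20 and a mitochondrial limit of 5% for 22.

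**Figure D2:**
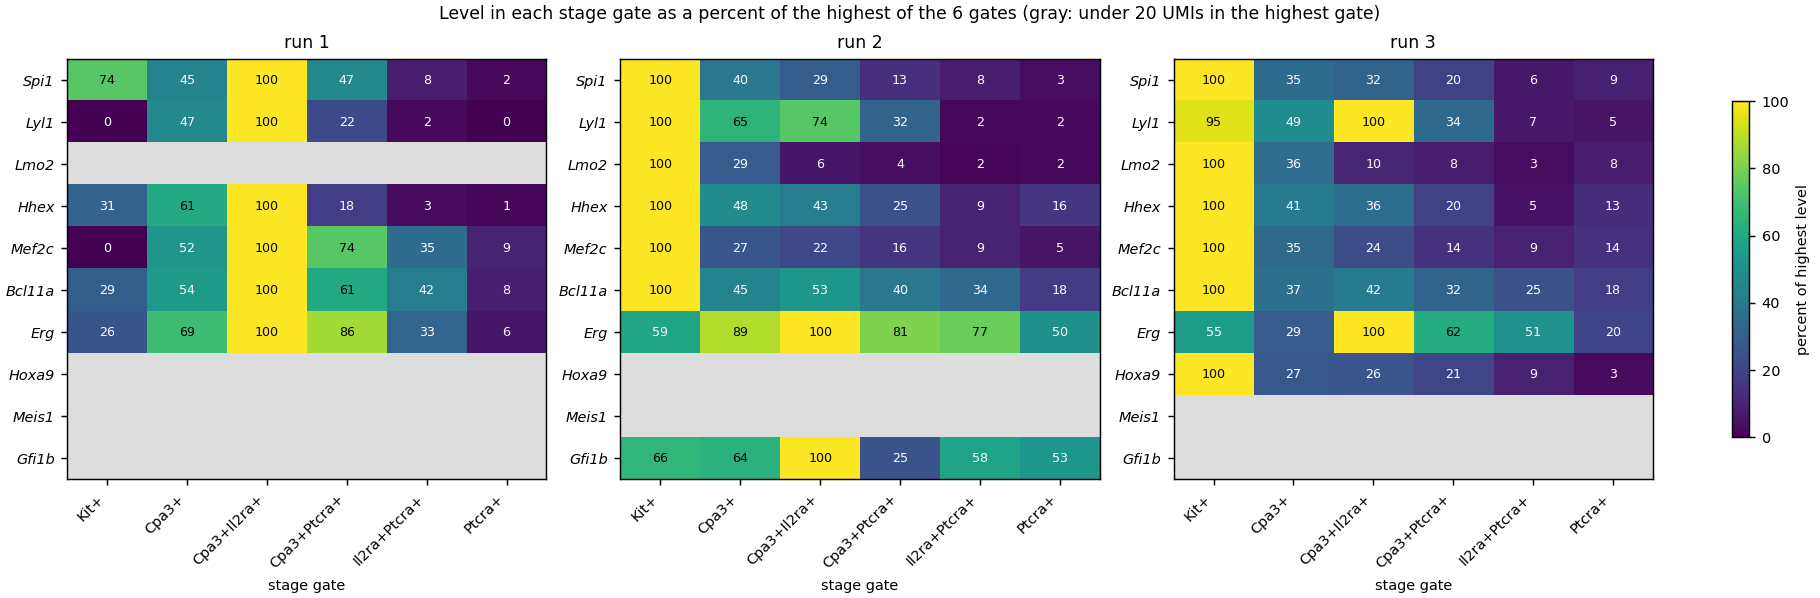
Level of each factor in each gate as a percent of its highest chain level in the same run, with gates on the x axis, factors on the y axis and 1 panel per run. Gray rows had under 20 UMIs in the highest gate. In runs 2 and 3 Lmo2 was at or under 10.2% from the Cpa3+Il2ra+ gate on, whereas Erg was still at 50.6% or more in the Il2ra+Ptcra+ gate.

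The first step, from Kit+ to Cpa3+, held most of the calls. Spi1, Lmo2, Mef2c, Bcl11a and Hoxa9 fell, which is 5 of the 9 factors tested, while 0.995% of all genes were called lower. Spi1 went from 12.3 to 7.46 CPM in run 1, from 86.8 to 34.5 CPM in run 2 and from 70.5 to 24.99 CPM in run 3. Its log2 change was -1.37 ± 0.29 (edgeR adjusted p of 0.018). Mef2c changed by -1.61 ± 0.30 with an edgeR adjusted p of 0.0097, the smallest of the 5. It was at 76.4 and 20.4 CPM in run 2 and at 217 and 74.98 CPM in run 3, while run 1 had 0 UMIs in the first gate and 5.97 CPM in the next. The other 3, Lmo2, Hoxa9 and Bcl11a, changed by -1.52, -1.51 and -1.27. Hhex changed by -1.10 ± 0.37 and was not called (edgeR adjusted p of 0.15), nor were Lyl1, Erg and Gfi1b. The first gate requires a Kit UMI, which only 126 of 1038 Cpa3+ cells of run 2 and 126 of 632 of run 3 had. Those cells held Spi1 at 83.1 and 79.8 CPM, Mef2c at 44.4 and 211 CPM and Bcl11a at 52.4 and 86.0 CPM. Lmo2 was at 26.2 and 18.4 CPM and Hoxa9 at 6.83 and 12.3 CPM in them. The Kit+ gates had 46.9 and 81.8 CPM of Bcl11a, 34.7 and 19.7 CPM of Lmo2 and 12.2 and 16.7 CPM of Hoxa9. The gates of this step differ in Kit content as well as in Cpa3, and the fitted changes do not separate the 2. Among cells with a Kit UMI, the counting intervals of all 5 factors in the Cpa3+ gate overlapped those of the Kit+ gate in runs 2 and 3. Spi1 in run 3 and Bcl11a in both runs were not lower there. No test was made among cells with a Kit UMI alone.

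All 5 calls were kept without the Kit+ gate of run 1. None was made without run 2, without run 3, without a block or with the 3 gates outside the chain in the fit. Cells with γδ markers rose across this step from 15.4% to 34.3% in run 1, 9.41% to 30.3% in run 2 and 26.1% to 68.5% in run 3. With these cells left out, no factor was called (edgeR), the log2 change of Spi1 was -0.87, and Spi1 went from 83.9 to 60.2 CPM in run 3 and from 93.2 to 38.9 CPM in run 2. With cells carrying markers of non-T lineages left out, Lmo2 and Mef2c were called.

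**Figure D3:**
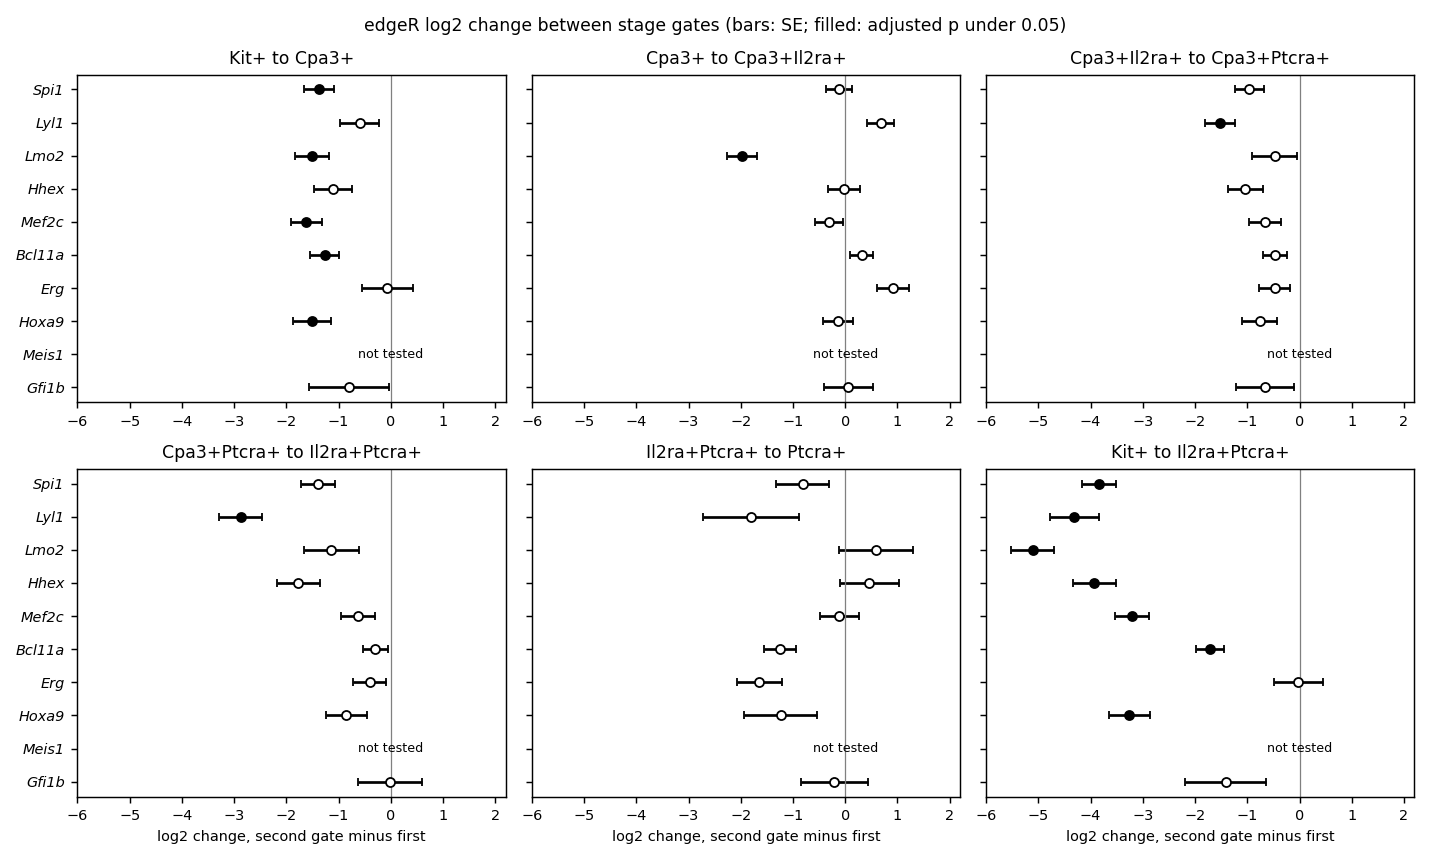
Fitted log2 change of each factor (x axis, later gate minus earlier gate) for the 5 steps of the chain and for Kit+ to Il2ra+Ptcra+, with SE as bars and filled points for an edgeR adjusted p under 0.05. Filled points are seen for 5 factors in the first step, for Lmo2 in the next, for Lyl1 in the following 2 and for 7 factors over the span.

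Within the Cpa3+ gate the factors went with Kit. In run 3, Cpa3+ cells with a Kit UMI (126 cells, median depth 10876 UMIs) had 79.8 CPM of Spi1, and those without (506 cells, 7367 UMIs) had 7.12 CPM. The corresponding levels were 83.1 and 26.1 CPM in run 2. Mef2c was at 211 and 30.7 CPM in run 3, Hhex at 70.3 and 13.6 CPM, and Bcl11a at 86.0 and 12.2 CPM, with no overlap of the Poisson intervals. The Kit+ gate of run 3 had, beside these, 70.5 CPM of Spi1 and 217 CPM of Mef2c. In run 1, only 21 Cpa3+ cells had a Kit UMI, and the intervals of Spi1 overlapped. These are cells of the same libraries, so no test was made.

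**Figure D4:**
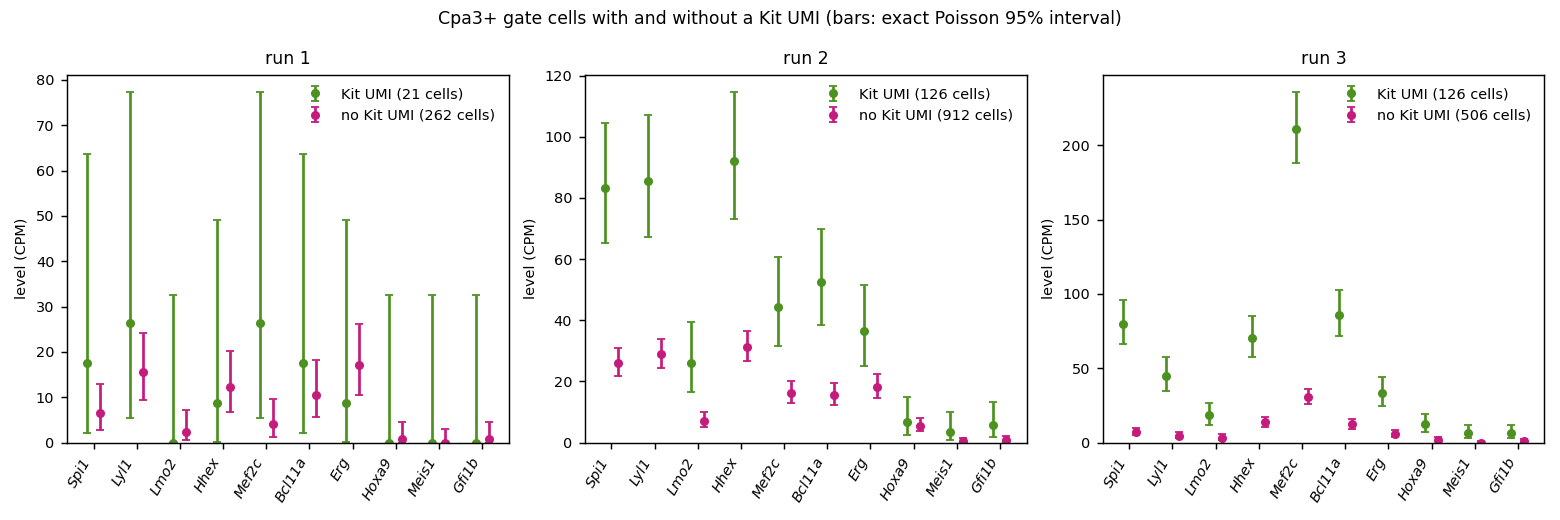
Level of each factor (y axis, CPM) in Cpa3+ gate cells with a Kit UMI and without, with 1 panel per run and exact Poisson 95% intervals as bars. In run 3 Spi1, Lyl1, Lmo2, Hhex, Mef2c, Bcl11a and Erg were all higher with a Kit UMI, with intervals that do not overlap.

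The next step, from Cpa3+ to Cpa3+Il2ra+, gave a call for Lmo2 alone. Lmo2 was at 2.24 and 1.28 CPM in run 1, 9.94 and 2.01 CPM in run 2 and 7.04 and 2.01 CPM in run 3. It fell by 1.98 ± 0.29 on the log2 scale (edgeR adjusted p of 0.0002), beside 8.22% of all genes called lower. Among cells with a Kit UMI the levels of Lmo2 were 26.2 and 4.25 CPM in run 2 and 18.4 and 2.43 CPM in run 3.

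Lyl1, its partner in protein complexes, had higher levels in the later gate. It was at 16.4, 37.2 and 14.6 CPM in the Cpa3+ gates and at 34.9, 42.4 and 30.1 CPM in the Cpa3+Il2ra+ gates of runs 1, 2 and 3. The log2 change was 0.68 ± 0.26, which did not pass (edgeR adjusted p of 0.094). Lyl1 was called higher without a filter on low counts, with gates by 2 UMIs and without cells carrying markers of non-T lineages. Erg was at 16.4, 20.9 and 12.4 CPM and then at 23.8, 23.6 and 43.2 CPM, a log2 change of 0.92 ± 0.31 that just missed the threshold (edgeR adjusted p of 0.059), where 5.08% of all genes were called higher. Erg was called higher without run 1, without run 2, without a filter on low counts, without an upper limit on genes and without likely doublets.

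Without run 2 Lmo2 was not called here, and without a block nothing was. Spi1, Hhex, Mef2c, Bcl11a, Hoxa9 and Gfi1b had log2 changes between -0.32 and 0.32 in this step.

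In the later steps, as the Ptcra gates were reached, Lyl1 was the factor that passed the test. From the Cpa3+Il2ra+ to the Cpa3+Ptcra+ gate it went from 34.9 to 7.77 CPM in run 1, from 42.4 to 18.3 CPM in run 2 and from 30.1 to 10.3 CPM in run 3, with no overlap of the intervals in any run. The log2 change was -1.52 ± 0.29 (edgeR adjusted p of 0.014), where 0.308% of all genes were called lower. From there to the Il2ra+Ptcra+ gate it went on to 0.85, 1.23 and 2.06 CPM, a log2 change of -2.88 ± 0.41 (edgeR adjusted p of 0.0023), where 0.299% of all genes were called lower.

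No other factor passed in these steps, although the levels of Spi1 and Hhex were lower in each of them in all 3 runs. In the Cpa3+Il2ra+, Cpa3+Ptcra+ and Il2ra+Ptcra+ gates, Spi1 was at 16.6, 7.77 and 1.33 CPM in run 1, at 25.2, 11.6 and 6.59 CPM in run 2 and at 22.7, 13.8 and 4.48 CPM in run 3. Hhex was at 19.6, 3.53 and 0.60 CPM in run 1, at 35.5, 20.8 and 7.81 CPM in run 2 and at 24.1, 13.2 and 3.36 CPM in run 3. In every run the counting interval of the log2 ratio lay under 0 for both factors and both steps. In the test Hhex changed by -1.04 ± 0.34 and -1.77 ± 0.41 in them, with edgeR adjusted p-values of 0.27 and 0.065, and Spi1 by -0.96 ± 0.28 and -1.39 ± 0.33, with edgeR adjusted p-values of 0.16 and 0.071. Without run 1, Hhex was called in both steps and Spi1 in the second of them. Without run 2, without run 3 or without a block, no factor was called in either step. From Il2ra+Ptcra+ to Ptcra+, no factor was called by edgeR or by DESeq2, where edgeR called 0.163% of all genes lower. Only the sort of run 1 took DN cells past DN3, so the Ptcra+ gate need not hold the same stages in each run. Bcl11a and Erg, at log2 changes of -1.25 ± 0.30 and -1.64 ± 0.43, were the 2 with an unadjusted p under 0.05 in edgeR, and their adjusted p-values were 0.072 and 0.092. Hhex had a log2 change of 0.46 ± 0.56 in this step, from 0.60 to 0.27 CPM in run 1, 7.81 to 13.2 CPM in run 2 and 3.36 to 8.71 CPM in run 3, where the counting interval of the log2 ratio was 0.49 to 2.18.

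Lyl1, Hhex and Bcl11a fell from Kit+ to Il2ra+Ptcra+ and again beside Bcl11b, as described next. Among the factors that did both, they are those for which the RefSeq table lists a single start. Their promoters are shown as the 250 bases before it (GRCm38.p6, 5′ to 3′ in the direction of the gene), with the ETS core GGAA, or TTCC where it lies on the other strand, in capitals.
Lyl1 promoter, chr8:84701207-84701456, + strand: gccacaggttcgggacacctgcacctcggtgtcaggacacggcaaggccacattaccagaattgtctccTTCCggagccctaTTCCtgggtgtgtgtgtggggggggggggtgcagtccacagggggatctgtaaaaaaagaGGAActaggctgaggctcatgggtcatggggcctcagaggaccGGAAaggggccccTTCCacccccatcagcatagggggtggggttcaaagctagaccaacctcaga
Hhex promoter, chr19:37434591-37434840, + strand: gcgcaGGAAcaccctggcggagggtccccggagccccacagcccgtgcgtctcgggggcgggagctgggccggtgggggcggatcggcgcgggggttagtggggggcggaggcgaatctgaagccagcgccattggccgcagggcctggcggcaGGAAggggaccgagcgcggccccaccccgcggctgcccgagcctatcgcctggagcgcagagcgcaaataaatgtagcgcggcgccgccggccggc
Bcl11a promoter, chr11:24080445-24080694, + strand: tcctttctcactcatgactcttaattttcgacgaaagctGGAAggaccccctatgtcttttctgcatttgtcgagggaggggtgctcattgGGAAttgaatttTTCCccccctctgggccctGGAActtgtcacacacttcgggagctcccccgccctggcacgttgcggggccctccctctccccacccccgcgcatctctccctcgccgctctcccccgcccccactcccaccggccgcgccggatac
The ETS core was found 5 times before Lyl1, 2 times before Hhex and 4 times before Bcl11a. It is a short motif, found in 93.4% of 32851 promoters of this length with a median of 3 matches. The E-box CANNTG was found 1 time before Lyl1 and before Bcl11a and 0 times before Hhex, and was held by 66.2% of all promoters. None of the 3 held GATAA or TGTGGT, which 22.6% and 14.05% of all promoters held. Of the 10 factors, 8 had a promoter in the table. Spi1 and Lmo2 were not among them. Lyl1 lies on chromosome 8 (84701457 to 84704715, + strand), Hhex on chromosome 19 (37434810 to 37440731, + strand) and Bcl11a on chromosome 11 (24078056 to 24174123, + strand), by the GENCODE annotation of GRCm38. By that annotation the Bcl11a stretch shown lies inside the gene, and the Hhex stretch runs past the start of its gene.

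Bcl11b itself was used to split the Cpa3+Il2ra+ cells, since all of them had left the Kit only gate and none had a Ptcra UMI. Cells with a Bcl11b UMI numbered 400, 1892 and 1363, and cells without numbered 38, 279 and 69 in runs 1, 2 and 3. The test used 6 sums and 9121 genes with the run as a block, leaving 2 residual degrees of freedom, and 6 of the 10 factors were tested. Of these, 5 were lower in cells with a Bcl11b UMI, namely Spi1, Lyl1, Hhex, Mef2c and Bcl11a, beside 0.57% of all genes. Their median log2 change with Erg was -1.66, and that of all genes was 0.03.

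Spi1 was at 53.5 CPM without and 21.3 CPM with a Bcl11b UMI in run 2, and at 119 and 17.9 CPM in run 3. In run 1 it was at 16.2 and 16.6 CPM, so that the difference was seen in 2 of the 3 runs. The log2 change was -1.90 ± 0.33 (edgeR adjusted p of 0.023). Mef2c, at 40.7 and 13.2 CPM in run 2 and 241 and 41.7 CPM in run 3, changed by -2.05 ± 0.29 (edgeR adjusted p of 0.012). In run 1 it was at 5.42 CPM, on 1 UMI, and 11.99 CPM.

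Bcl11a was at 27.1 and 20.3 CPM in run 1, 48.3 and 21.4 CPM in run 2 and 159 and 27.9 CPM in run 3, and changed by -1.77 ± 0.30 (edgeR adjusted p of 0.022). Hhex was at 72.9 and 30.3 CPM in run 2, 93.8 and 20.6 CPM in run 3, and 10.8 and 20.3 CPM in run 1, where the first value rests on 2 UMIs. It changed by -1.55 ± 0.29 (edgeR adjusted p of 0.035). Lyl1 was at 54.2 and 33.2 CPM, 77.6 and 37.5 CPM, and 108 and 26.2 CPM in the 3 runs, the same direction in each, with a change of -1.43 ± 0.24 (edgeR adjusted p of 0.021).

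Erg was not called here, with 22.7 CPM without and 23.7 CPM with a Bcl11b UMI in run 2, 76.2 and 41.5 CPM in run 3 and 5.42 (1 UMI) and 25.4 CPM in run 1. Its log2 change of -0.34 ± 0.28 had an edgeR adjusted p of 0.75. Lmo2, Hoxa9, Meis1 and Gfi1b were too low for the test. Hoxa9 was at 15.6 and 3.33 CPM in run 2 and 17.5 and 3.75 CPM in run 3, and Gfi1b at 9.47 and 1.70 CPM and at 13.4 and 1.08 CPM.

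**Figure D5:**
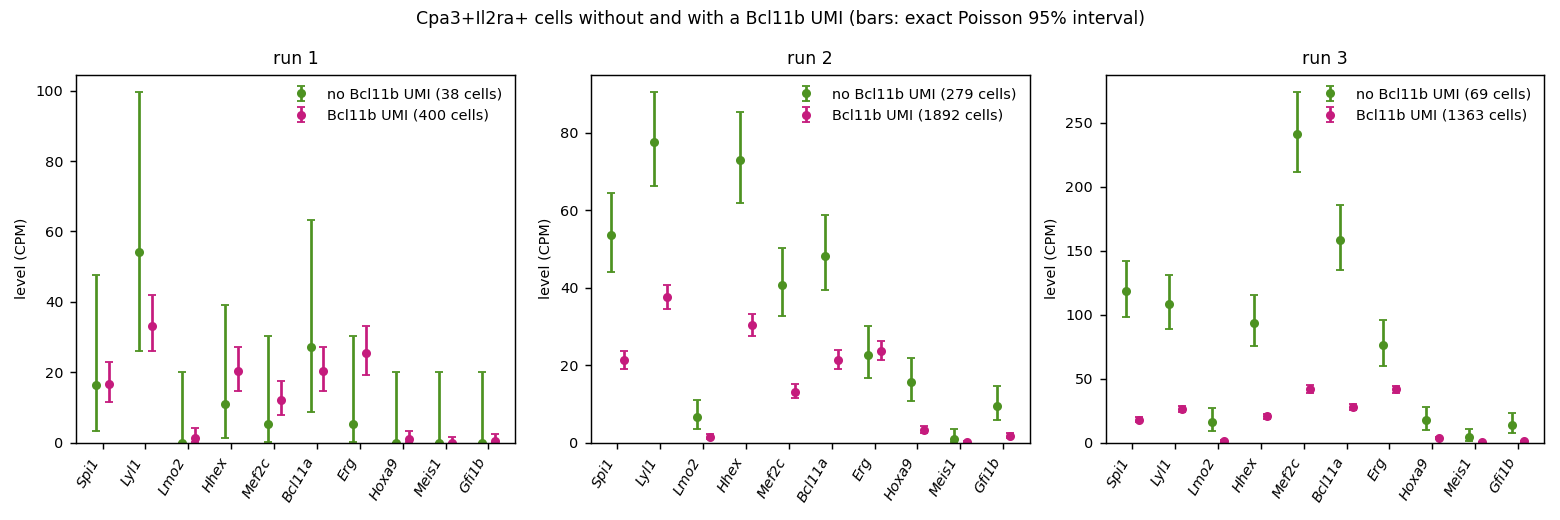
Level of each factor (y axis, CPM) in Cpa3+Il2ra+ cells without and with a Bcl11b UMI, with 1 panel per run and exact Poisson 95% intervals as bars. In runs 2 and 3 Spi1, Lyl1, Hhex, Mef2c and Bcl11a were higher without a Bcl11b UMI, and in run 1, with 38 cells of that kind, the intervals of Spi1 overlap.

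Cells without a Bcl11b UMI carried markers of granulocytes or mast cells in 0%, 3.58% and 10.1% of the cells in the 3 runs, against 0.25%, 0.106% and 0.587% of the others. With cells carrying markers of non-T lineages left out, Lyl1 and Mef2c were called. Leaving out run 1 gave 8 calls of 9 factors tested, adding Lmo2, Hoxa9 and Gfi1b, which the main fit did not test. Without a block no factor was called. Cells without a Bcl11b UMI had lower median depths, 3744, 6965 and 13140 UMIs against 4769, 7590 and 14021. With cells thinned to 2000 UMIs, none of the 5 factors tested was called. The gate and the Bcl11b split were read again from the thinned counts, so this setting changed the groups as well as the depth.

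Single cells were also read by whether they held a UMI of a factor. A Spi1 UMI was found in 17 of 85 Kit+ cells of run 2 and in 41 of 153 (26.8%, exact binomial 95% interval 19.97% to 34.5%) of run 3. It was found in 1.58% and 3.31% of the Ptcra+ cells, where Spi1 was at 2.78 and 6.15 CPM. These are the last gate of the chain but, by the sorts of runs 2 and 3, not a stage past DN3. Median depths were 5306 and 9695 UMIs in the Kit+ cells and 4381 and 7500 UMIs in the Ptcra+ cells. After thinning each cell to 2000 UMIs the shares were 9.41% and 9.80% against 0.395% and 2.22%.

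At that depth, UMIs of at least 2 of the 10 factors were found in 14.1% (exact 95% interval 7.51% to 23.4%) of the Kit+ cells of run 2 and 19.6% (13.6% to 26.8%) of those of run 3. In the Cpa3+Il2ra+ gates the shares were 5.20% and 6.91%, and in the Il2ra+Ptcra+ gates 0.980% and 1.43%. In the Ptcra+ gates they were 0% (0 of 253 cells, up to 1.45%) and 4.44% (1.94% to 8.57%). Among the chain gates of run 3, the Ptcra+ gate had the highest share of cells with B cell markers, 7.18%. The share without those cells is not given here. The Kit+ cells of run 1 had no such cell among 26, where 3 cells would be 11.5% and the exact 95% interval reaches 13.2%. Unthinned, the shares in runs 2 and 3 were 28.2% and 30.7% in the Kit+ gates and 27.4% and 47.8% in the Cpa3+Il2ra+ gates. A UMI of at least 1 factor was then found in 38.8% and 49.7% of the Kit+ cells and in 57.5% and 76.4% of the Cpa3+Il2ra+ cells. Median depths were 5306 and 9695 UMIs in the Kit+ gates and 7525 and 13980 UMIs in the Cpa3+Il2ra+ gates. The highest number of factors in 1 cell was 10, in a Kit+ cell of run 3.

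Cells with no UMI of the 4 gate genes also held some of the factors. Hhex was at 42.8 CPM there in run 2 and 33.1 CPM in run 3, above its level in the Cpa3+Il2ra+ gate of each, and at 0.40 CPM in run 1. Among these cells, those carrying NK receptor markers had 57.0 and 36.3 CPM of Hhex in runs 2 and 3, on 2111 and 1521 cells, and 1.21 CPM in run 1, on 252 cells. The same cells had 3.16 and 3.32 CPM of Spi1 and 2.01 and 2.53 CPM of Lyl1, beside 25.2 and 22.7 CPM of Spi1 in the Cpa3+Il2ra+ gates.

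Mef2c was at 88.5 CPM in cells with no gate gene in run 3. There 306 of 2306 cells carried B cell markers and had 675 CPM of Mef2c, 179 CPM of Bcl11a, 76.9 CPM of Spi1 and 60.4 CPM of Lyl1. Without them, Mef2c was at 12.04 CPM and Bcl11a at 7.42 CPM. B cell markers also touched the chain in that run, with the highest share, 7.18%, in the Ptcra+ gate of 181 cells. Of the 153 Kit+ cells, 9 carried them and had 530 CPM of Mef2c, and the other 144 had 198 CPM. Of the 1543 Il2ra+Ptcra+ cells, 48 carried them and had 104 CPM, and the others 16.7 CPM.

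Other genes of the same kind were taken from 3 lists. From Kit+ to Il2ra+Ptcra+, 10.2% of all genes tested were called lower and 6.77% higher. Of 22 other progenitor regulators, 16 were tested from Kit+ to Il2ra+Ptcra+, and 5 fell, 2 rose and 9 were not called, with a median log2 change of -0.35. Among those that fell, Hlf, a stem cell factor of the PAR bZIP family, changed by -3.44, Nfe2 by -1.91, Ikzf2, a relative of Ikaros, by -1.66 and Lmo4, a relative of Lmo2, by -1.19. Gfi1, the paralog of Gfi1b, and Runx1 rose by 1.45 and 1.09. Fli1 and Etv6, further ETS factors, had log2 changes of -0.28 and -0.03 and were not called.

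Of 13 myeloid genes that PU.1 is known to activate, 10 were tested, 8 fell, none rose, and the median was -3.28. Mpo, the myeloperoxidase of granules, changed by -6.46 ± 0.54, Tyrobp, an adaptor of activating receptors, by -4.92 ± 0.40, and Csf2rb, Fcgr3, Ctss and Fcer1g by -3.81, -3.66, -3.32 and -3.25. Mpo is also 1 of the 8 granulocyte or mast cell markers, which summed to 818 CPM in the Kit+ gate of run 2. Csf1r and Itgam, which were not tested, are also myeloid or dendritic markers. Changes of these myeloid genes without cells carrying non-T markers are not given here. In cells with a Bcl11b UMI, 3 of 7 tested were lower, namely Mpo, Tyrobp and Fcer1g, beside 0.57% of all genes. Of 13 T lineage regulators, all tested, 7 rose and 1 fell, with a median of 0.94. Notch3, Notch1, Ets2, Bcl11b and Hes1 rose by 3.44, 1.78, 1.52, 1.18 and 1.01, and Ikzf3 changed by -2.97.

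The genes whose pattern over the 25 sums of gates and runs with at least 50 cells was most like that of a factor were found by Pearson's r of log2(CPM + 1), among 7687 genes. The sums share libraries, so r is given as a description. For Spi1 they were Napsa (0.95), Cd34 and Lst1, for Lyl1 Adgrg3 (0.96), Emilin2 and Lat2, for Lmo2 Car2 (0.95), Fes and Lst1, and for Hhex Ctla2b (0.96), Ier2 and Gm2a. For Bcl11a they were Napsa (0.91), Runx2 and Lyn, for Mef2c Irf2 (0.93), Parp8 and Arhgap17, and for Hoxa9 Cd34 (0.92), Tifab and Serpinf1. For Erg they were Rnf130 (0.93), Ifitm2 and Tcf7l2. For Gfi1b the highest r was 0.70.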

How the data were processed

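UMI counts per gene and cell of 3 10x libraries were used, each from 4 pooled thymi. Per the labels and methods, the authors used V2 or V3.1 chemistry and deposited the counts that Cell Ranger made on mm10, not normalized, without saying which version served runs 1 and 2. The header of run 3 names 4.0.0. The submitters' processing notes also name R 3.6.3 and Seurat 2.3. Kept cells held 39803308, 52629426 and 78289786 UMIs of 39947415, 52797915 and 98533329.

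Counts were summed per run and gate (at least 20 cells) and tested, two-sided, with edgeR 4.0.16 in R 4.3.3 (filterByExpr, TMM, glmQLFit and glmQLFTest, adjusted p under 0.05). The 4 gate genes were left out of the adjustment. The SE is the log2 change divided by the root of F. The run was a block because all gates of a run come from 1 library. Groups are the sorts the labels name, with 1 library each, so that p-values measure the spread of gate differences over 3 pools that differ in sort. Thinning drew 2000 UMIs from each cell. For the tests and the order of shutdown, the gates were then read again from the thinned counts. The thinned shares of single cells kept the gates of full depth. DESeq2 1.42.0 and Scrublet (scanpy 1.11.5, the 10% highest scores per run) served as alternatives, and doublets were otherwise kept. The test was also run on simulated counts for the step from Cpa3+Il2ra+ to Cpa3+Ptcra+. These had the same mean profile in every run and a common dispersion. They lack the run differences of the real data, so they do not show how the test performs on them. Floors are 3 counts, and intervals are at 95%.

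The factors, lists and markers were chosen with earlier results of these data known. The text names all 10 factors, and, of each list, mostly the called genes with the largest change from Kit+ to Il2ra+Ptcra+. Runx1, Fli1 and Etv6 were named outside that rule, and 1 list gene that fell is not reported here. The 3 genes most like a factor were taken for factors with at least 100 UMIs in the chain, among genes with at least 20 CPM in a sum. Promoters are from RefSeq. Leaving out cells by non-T or γδ markers, and run 1's Kit+ gate, was added after seeing the data.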

Additional observations from a re-analysis of the deposited data

Results flagged for a closer look

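Spi1 and Mef2c each had a step of the chain in which the level went opposite ways in 2 runs, with counting intervals that exclude no change in both. The difference between the runs was not tested. The runs also differed in sort, and only that of run 1 took DN cells past DN3. From Cpa3+ to Cpa3+Il2ra+, Spi1 had a log2 ratio of 1.15 (0.12 to 2.32) in run 1, from 7.46 to 16.6 CPM, and of -0.46 (-0.70 to -0.21) in run 2, from 34.5 to 25.2 CPM. From Il2ra+Ptcra+ to Ptcra+, Mef2c had a log2 ratio of -1.88 (-2.96 to -0.88) in run 1, from 3.99 to 1.09 CPM, and of 0.66 (0.24 to 1.06) in run 3, from 19.8 to 31.3 CPM. Without cells carrying markers of non-T lineages, Mef2c was at 15.9 and 10.3 CPM in those gates of run 3.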

How the results depend on the processing

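All gates of a run come from 1 library, so the run was a block. With no block, 3 factors were called from Kit+ to Il2ra+Ptcra+ (7 with it), and 0 in each step of the chain and 0 for the Bcl11b comparison, where 5, 1, 1, 1, 0 and 5 were called with it. No called factor changed its direction under any setting. Size factors of DESeq2 and a mitochondrial limit of 5% left every count as it was.

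From Kit+ to Cpa3+ (5 factors called), DESeq2 called 1, the fit with all 9 gates 0, gates by 2 UMIs 1, thinned cells 1, cells with markers of any other type left out 0, with non-T markers left out 2 and with γδ markers left out 0. From Cpa3+ to Cpa3+Il2ra+ (1 called), no filter on low counts gave 3, gates by 2 UMIs 2, thinned cells 0, markers of any other type left out 0, no upper limit on genes 2, likely doublets left out 2 and non-T markers left out 2. In this step all calls of Lmo2 were lower and all calls of Lyl1 or Erg higher, and without run 2 the call was Erg in place of Lmo2. From Cpa3+Il2ra+ to Cpa3+Ptcra+ (1 called), DESeq2 gave 0, no filter 3, all 9 gates 0, 2 UMIs 0 and thinned cells 0. From there to Il2ra+Ptcra+ (1 called), no filter gave 3, all 9 gates 0, thinned cells 0, no upper limit 3, doublets left out 2 and non-T markers left out 2. From Il2ra+Ptcra+ to Ptcra+ (0 called), no filter gave 2, any other type left out 1, no upper limit 2, doublets left out 1 and non-T markers left out 1. From Kit+ to Il2ra+Ptcra+ (7 called of 9 tested), thinned cells gave 4 of 6 tested and any other type left out 4 of 8 tested. For the Bcl11b comparison (5 called of 6 tested), DESeq2 gave 3 and non-T markers left out 2. No filter gave 8 of 10 tested, 2 UMIs 0 of 7 and thinned cells 0 of 5. The number of factors tested thus differed between settings, which also moves the counts. It could not be fitted with all other types left out, and the fit with all 9 gates does not apply to it.

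Leaving out each run in turn gave 0 to 6 calls from Kit+ to Cpa3+, 1 to 2 in the next step, 0 to 2 and 0 to 3 in the steps after it, 0 in the last, 5 to 8 from Kit+ to Il2ra+Ptcra+ and 4 to 8 for the Bcl11b comparison. Of 22 pairs of factor and run with enough UMIs, 20 reached 25% of the highest level, against 3 with thinned cells and 10 with any other type left out, where fewer pairs had enough UMIs. Apart from these constructions the cause was not tested. The γδ, non-T and run 1 Kit+ gate settings were chosen after seeing the data. Low counts limit Meis1, Gfi1b and Hoxa9, and the small number of cells limits the Kit+ gate of run 1.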

Other observations

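Cells with UMIs of Kit and Il2ra but not of Cpa3 or Ptcra, which lie outside the chain, numbered 32, 63 and 133 in runs 1, 2 and 3. They held Spi1 at 77.5 CPM in run 2 and 32.8 CPM in run 3, Hhex at 64.6 and 20.8 CPM, Lyl1 at 42.4 and 18.8 CPM, and Bcl11a at 44.3 and 47.95 CPM. Lmo2 was at 9.22 and 4.17 CPM there, on 5 and 8 UMIs, beside 34.7 and 19.7 CPM in the Kit+ gates. In run 1 the same cells had no UMI of Spi1, Lyl1 or Lmo2.

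Cells with Il2ra UMIs alone, 816, 732 and 750 in number, had 2.62, 13.6 and 10.6 CPM of Spi1 and 2.62, 9.22 and 5.90 CPM of Lyl1. Bcl11a was at 10.5, 19.7 and 24.1 CPM in them, beside 8.71, 15.9 and 20.3 CPM in the Il2ra+Ptcra+ gates. These gates were in no comparison, and no test was made.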
